A study of Mus musculus with 4 samples.

Results

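The replication-dependent histone genes were followed in total RNA from sorted lung smooth muscle cells (SMCs) of Tet3 mutant and control mice. Members were the protein-coding genes of the deposited table whose names begin with *Hist1h*, *Hist2h*, *Hist3h* or *Hist4h*. The table lists most of them under newer symbols (*H1f2* for *Hist1h1c*, for example), so that only 4 rows carry such a name as deposited. Older names were therefore taken from the GENCODE M21 annotation through the Ensembl gene identifiers. This gave 54 members among 21462 genes, with 5 genes for H1, 10 for H2A, 15 for H2B, 11 for H3 and 13 for H4. By cluster, 44 members lay in Hist1 on chromosome 13, 7 in Hist2 on chromosome 3, 2 in Hist3 on chromosome 11 and 1, *Hist4h4*, on chromosome 6. Of the 67 protein-coding genes with such names in the annotation, 13 were not analysed here, among them *Hist1h1t*, *Hist1h2aa* and *Hist1h2ba* of germ cells.

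The data comprise 2 Tet3 mutant and 2 control libraries on the C57BL/6 background. In the mutants a floxed *Tet3* allele was inactivated in adult mice by tamoxifen through an inducible Cre recombinase (ERT2Cre) driven by the α-SMA promoter, and cells were sorted by a tdTomato reporter after depletion of CD45- and Ter119-positive cells. By the study's methods controls lacked the floxed allele but carried the Cre allele and/or the reporter. Recombination and sorting thus depend on α-SMA promoter activity, which is not confined to one type of SMC. The labels give neither age, sex nor preparation date, and do not say whether a library stems from 1 animal, so p values measure only the spread between these libraries.

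Replication-dependent histone genes encode the core histones H2A, H2B, H3 and H4 and the linker histone H1, which package newly replicated DNA. They are transcribed mainly in S phase, lack introns in most cases, and give the only metazoan mRNAs that end in a conserved stem-loop instead of a poly(A) tail. The stem-loop is bound by SLBP, which acts in processing, translation and decay of the mRNA. Some members also give polyadenylated transcripts in cells that have left the cell cycle. Ribosome-depleted total RNA libraries keep both kinds of transcript, whereas libraries selected for poly(A) lose the former.

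The stem-loop was searched for in the annotated transcripts on the sense strand, as 16 letters that read GG, 3 free bases, TTNTNA, 3 free bases and CC. They were found in 38 of 54 members (70.4%), compared with 5.4% of 21799 other protein-coding genes. Within the last 200 bases of a transcript the shares were 38.9% and 0.615%. The 5 sequences below, one for each class, are shown because the letters set H4 apart from the other classes. Capitals mark the 16 letters of the stem-loop, flanked by 7 bases on either side, in transcripts from GENCODE M21 on GRCm38:
Hist1h1c (H1), chr13:23739505-23739534, plus strand: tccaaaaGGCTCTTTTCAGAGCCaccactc
Hist2h2ac (H2A), chr3:96220411-96220440, minus strand: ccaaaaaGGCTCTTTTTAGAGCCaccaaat
Hist1h2bb (H2B), chr13:23747196-23747225, plus strand: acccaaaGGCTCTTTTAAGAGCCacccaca
Hist1h3a (H3), chr13:23761883-23761912, minus strand: aaccaaaGGCTCTTTTCAGAGCCacacacg
Hist1h4d (H4), chr13:23581943-23581972, plus strand: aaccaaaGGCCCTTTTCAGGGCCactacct

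The first arm of the stem read GGCTC in 26 of 26 matches in H1, H2A, H2B and H3 genes. In H4 genes it read GGCCC in 10 of 12 matches and GGTCC in the other 2. The most frequent form, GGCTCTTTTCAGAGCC, was found in 19 members, and the H4 form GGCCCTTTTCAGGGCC in 7. Exon length was a multiple of 3 in 12 of the 16 members without these letters and in 9 of the 38 with them. Gene models without untranslated regions have such lengths, so some of these annotated ends may fall short of the stem-loop. Where an annotated transcript ended within 200 bases after the stem-loop it was called short (21 members), and where it ran on for at least 300 bases it was called long (17 members).

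*Tet3*, the targeted gene, was at 1847 (control 1), 1926 (control 2), 1534 (Tet3 mutant 1) and 1444 (Tet3 mutant 2) normalized counts. The log2 fold change was -0.34 (SE 0.10), with a limma p of 0.0184 and an adjusted p of 0.681. The value covers reads over all exons of the gene, and the deleted part could not be viewed separately. All 8 SMC markers followed were present in every library, with summed levels of 4567 and 5848 in the control libraries, against 6894 and 6519 in those of mutants. Summed markers of fibroblasts were at 14830 (control 1), 12622 (control 2), 15717 (mutant 1) and 13998 (mutant 2). Those of alveolar type 2 cells were at 9905 and 14883 (controls) versus 7104 and 8938 (mutants). Endothelial markers summed to 8513 and 7388 (controls) versus 8809 and 7998 (mutants). Markers of other cell types were thus present as well, and histone levels cannot be assigned to SMCs alone. The deposited totals, already scaled by the authors, were 7003231 and 7164573 for the controls and 6893578 and 6805272 for the mutants, so the depth of each library before scaling cannot be read from them.

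The family had low normalized counts in these libraries, without regard to gene length or to reads lost because they mapped to several places. All 54 members together reached 2257 (control 1), 2967 (control 2), 2270 (Tet3 mutant 1) and 3031 (Tet3 mutant 2) normalized counts, which was 0.0322% to 0.0445% of a library's total. Only genes whose mean over the libraries reached 10 were tested, which left 41 members. Their median level was 28.5, compared with 209 over all 16659 genes tested, and 2 members lay above that value. The other 13 members had means of 1.5 to 9.25 and made up 2.56% of the family. A value of 0 occurred in 2 members, *Hist1h3h* (2, 0, 4 and 3 in control 1, control 2, mutant 1 and mutant 2) and *Hist1h4m* (6, 0, 0 and 0), both named after their values were seen.

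H1 genes supplied the largest share of the family in each library. H1 took 36.1% to 39.9% of the summed counts over the 4 libraries, H4 22.4% to 24.4%, H2B 17% to 21.6%, H2A 13% to 14.6% and H3 4.89% to 6.43%. These shares cover the members only. Most of the 13 genes not analysed here are H2A genes, so the H2A share leaves out more genes than that of any other class. The linker histone genes *Hist1h1c* and *Hist1h1e* alone took 27.4% of the family, and the 10 highest members 64.5%. *Hist1h1c* had 324 and 407 normalized counts in the control libraries, against 353 and 387 in those of mutants. *Hist1h1e* had 318 (control 1), 407 (control 2), 343 (mutant 1) and 349 (mutant 2). The order of the 41 members was similar in all libraries, with Spearman's rho between 0.88 and 0.957 for the 6 pairs of libraries, a description across genes that share these libraries.

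**Figure D1:**
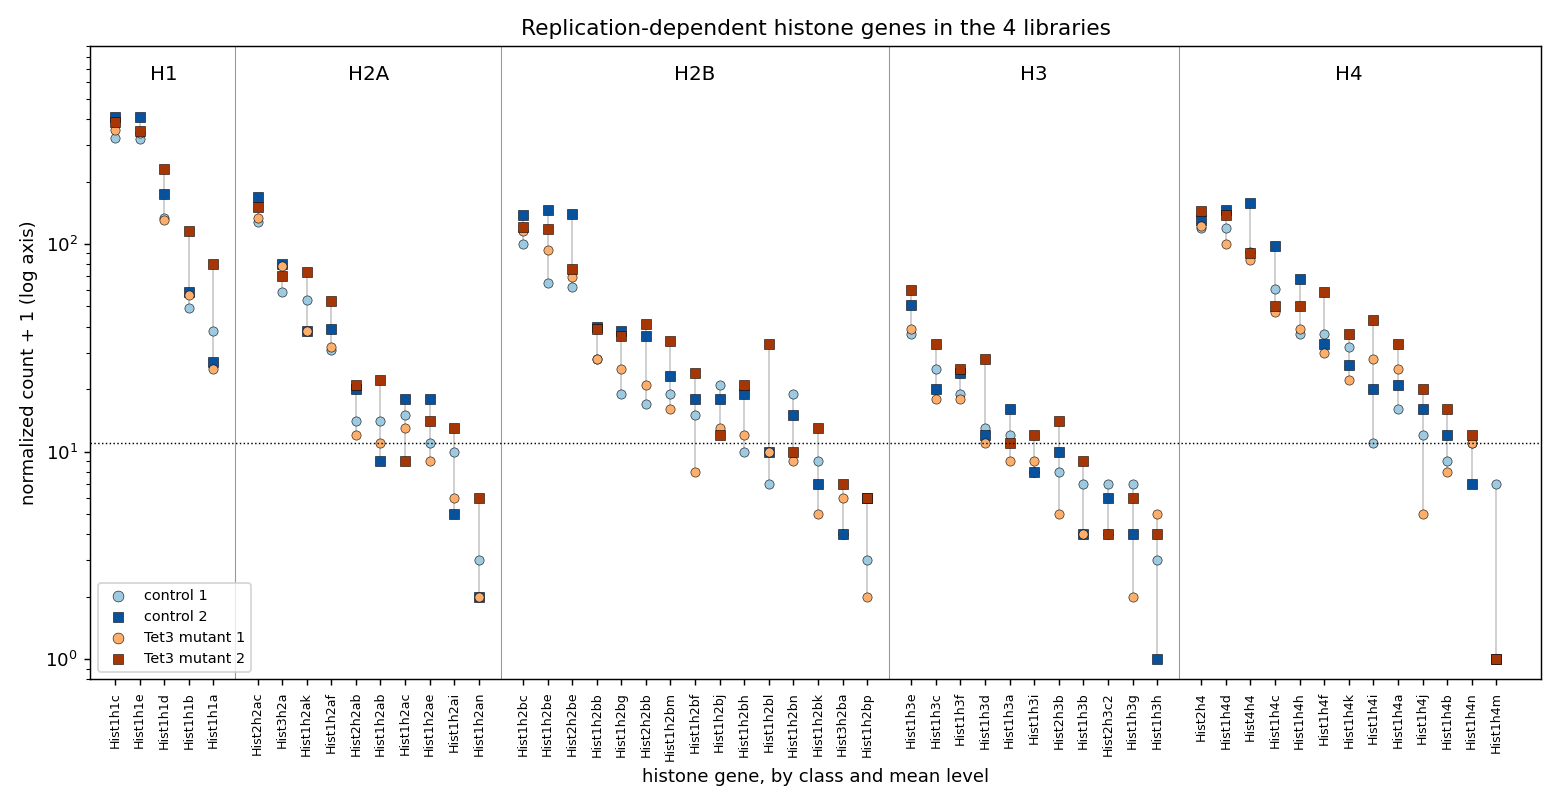
Normalized counts plus 1 (log axis) of all 54 replication-dependent histone genes, ordered by class and mean level, with 1 point for each library: circles for replicate 1, squares for replicate 2, blue for controls and orange to brown for Tet3 mutants. The dotted line marks a value of 10. The highest point is a square in 39 of the 41 members tested, compared with 55.5% of all genes tested. *Hist1h1c* and *Hist1h1e* are highest among all members.

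Per 1000 exon bases the order of genes was different. *Hist2h2ac*, an H2A gene of the Hist2 cluster, was highest at 277 normalized counts per 1000 bases, followed by *Hist1h1c* at 236 and *Hist1h1e* at 184. The other H2A genes at the top of their class were *Hist1h2ak* at 127 and *Hist1h2af* at 94.6. Among H4 genes the values were 110 for *Hist1h4d*, 101 for *Hist1h4h* and 99.1 for *Hist1h4f*, which differ by less than the spread of each gene between libraries. H2B was led by *Hist1h2bc* at 102, *Hist2h2bb* at 72.8 and *Hist1h2bb* at 64.5. H3 genes were lower, with 54.7 for *Hist1h3e*, 36.5 for *Hist1h3c* and 20.6 for *Hist1h3a*. The H1 class was completed by *Hist1h1b* at 93.2. The median over a class was 93.2 in H1, 42.2 in H4, 32.6 in H2B, 30.2 in H2A and 16.3 in H3.

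These levels depend on how much of a gene's sequence is unique, since the authors removed reads that mapped to more than 1 place. The share of 75-base windows found in no annotated transcript at another place served as a measure, 75 being the read length. Genes that overlap in position were treated as the same place, so windows shared only with them count as unique. It was 100% in 5 members, had a median of 64.2% and fell below 50% in 18 members. The 18 members with less unique sequence had a median of 20.8 normalized counts per 1000 bases, compared with 36.6 in the other 36, and they held 9.02% of the family's summed level. Of these 18 members 8 were tested, as against 33 of 36. The lowest share was 6.53% in *Hist1h3h*. *Hist1h2af* was high per length even though only 29.5% of its windows were unique. Spearman's rho between uniqueness and level per length was 0.392 over 54 members, again a description across genes of the same libraries. Of the 13 genes that were not analysed here, 9 had less than 50% unique windows. The levels of members with little unique sequence and their order are therefore uncertain. The same holds for the order of the classes, both in sums and per length. The 5 H1 genes had 93.3% to 100% unique windows, whereas the 11 H3 genes had 6.53% to 77.9%. In addition, 15 members share exon bases with another annotated gene, for example *Hist1h1e* with *Hist1h2be* (25.7% of *Hist1h1e*) and *Hist2h2bb* with *Gm20628* and *Gm42743* (100%), and the values of such members are uncertain as well.

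**Figure D2:**
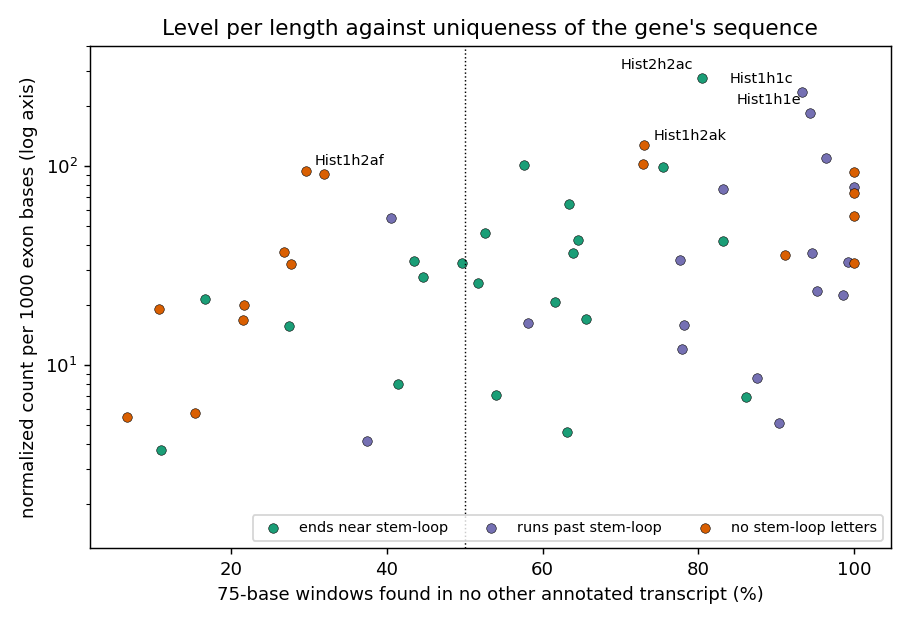
Mean normalized count per 1000 exon bases (log axis) of each of the 54 histone genes against its share of unique 75-base windows (%). Unique windows are found in no annotated transcript at another place, and genes that overlap in position are treated as the same place. Colours give the annotated 3′ end (short: ends near stem-loop; long: runs past stem-loop) and the dotted line marks 50%, to the left of which 18 members lie with a median of 20.8.

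Next, Tet3 mutant and control libraries were compared to ask whether loss of *Tet3* altered histone gene expression. With limma on log2(value + 1), 0 of 41 members passed an adjusted p of 0.05, as did 0% of all 16659 genes tested. At an unadjusted p under 0.05 the number was also 0 of 41, compared with 6.68% of all genes tested (3.83% higher and 2.85% lower in mutants). The smallest unadjusted p of a member was 0.0545. Log2 fold changes ran from -0.83 to 1.23, with a median of 0.09 compared with -0.01 over all genes tested, and 23 of 41 were above 0, compared with 49% of all genes tested. The median standard error was 0.43 for members and 0.22 for all genes tested.

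**Figure D3:**
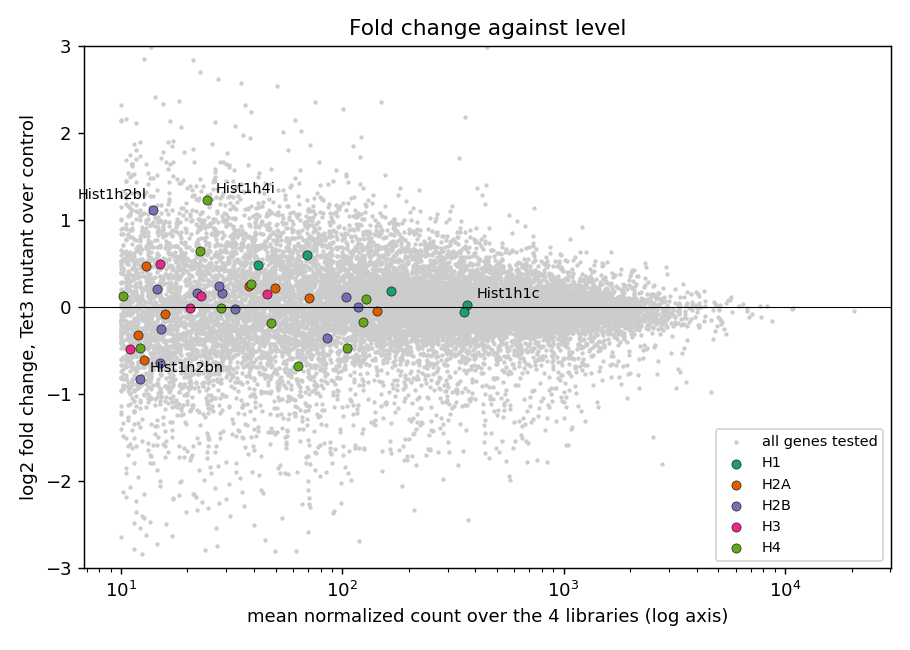
Log2 fold change of Tet3 mutants over controls against the mean normalized count over the 4 libraries (log axis) for all genes tested (grey; those beyond 3 in either direction are not drawn) and for the 41 histone genes coloured by class. Histone genes are spread on both sides of 0 between -0.83 and 1.23 and narrow towards 0 at higher levels, as in *Hist1h1c*.

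The summed level of the family averaged 2612 ± 502 (SD, n = 2) over the control libraries, against 2650 ± 538 (SD, n = 2) over those of mutants, a ratio of 1.01. The exact two-sided permutation test gave p = 0.667, with 0.333 as the smallest p possible for 2 against 2 libraries. By class the ratio of mutants to controls was 1.07 for H1, 1.04 for H2A, 0.971 for H2B, 1.1 for H3 and 0.934 for H4. In each class the groups overlapped, and no exact permutation p was below 0.667. The H3 genes of the annotated H3.2 protein summed to 109 and 120 (controls) versus 92 and 166 (mutants), and those of H3.1 to 26 and 25 in the control libraries, against 21 and 29 in those of mutants. The ratio was 1.05 for Hist1, 0.945 for Hist2 and 1.1 for Hist3, where the groups overlapped, and 0.694 for the single Hist4 gene, where they did not.

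**Figure D4:**
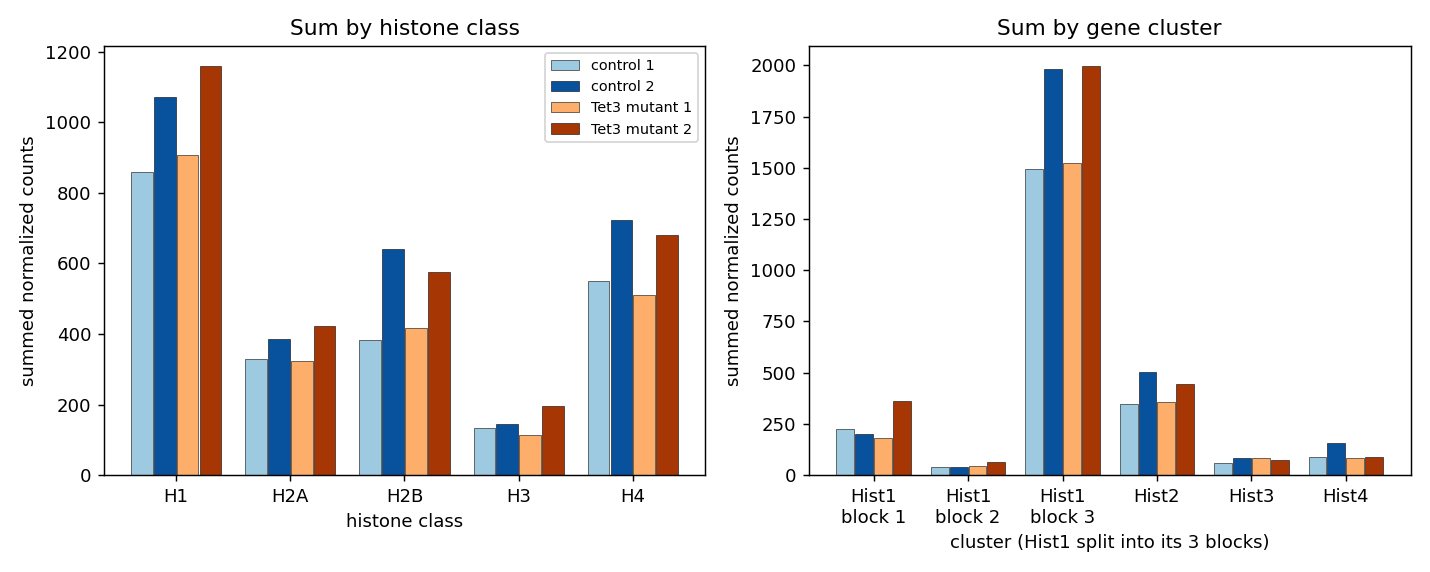
Summed normalized counts in each of the 4 libraries by histone class (left) and by gene cluster with Hist1 split into its 3 blocks (right), without error bars since each bar is 1 library. In every class the bar of replicate 2 is higher than that of replicate 1 in both groups, whereas block 1 of Hist1 stands out in Tet3 mutant 2 with 363 counts.

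The groups did not overlap for 8 of 41 members, with the mutants higher in 2 and lower in 6. Over all genes tested the shares were 19.6% for mutants higher and 19.5% for mutants lower, as compared with 4.88% and 14.6% of members. These 8 members were sorted out by their values in the same comparison and are given as a description. The H4 gene *Hist1h4i* (chr13:22040636-22041362) had the largest difference, with 10 normalized counts (control 1), 19 (control 2), 27 (mutant 1) and 42 (mutant 2). Its log2 fold change was 1.23 (SE 0.49, limma adjusted p = 0.681). The gene has a long annotated 3′ end, with 77.6% unique windows. *Hist1h4a*, also encoding H4, had 15 and 20 (controls) versus 24 and 32 (mutants), with a log2 fold change of 0.65 (SE 0.40).

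Among the 6 members with lower values in both mutants, *Hist1h4c* had 60 and 97 in the control libraries, against 46 and 49 in those of mutants. Its log2 fold change was -0.67 (SE 0.33, limma adjusted p = 0.683), and without control 2 it was -0.33. *Hist1h2bn*, an H2B gene, had 18 (control 1), 14 (control 2), 8 (mutant 1) and 9 (mutant 2), with a log2 fold change of -0.83 (SE 0.45) and 27.7% unique windows. *Hist1h2bj*, another H2B gene, had 20 and 17 (controls) versus 12 and 11 (mutants), with a log2 fold change of -0.64 (SE 0.42). *Hist1h2ac* had 14 and 17 in the control libraries, against 12 and 8 in those of mutants, and *Hist4h4*, the H4 gene that stands alone on chromosome 6 (chr6:136801553-136804415), had 91 (control 1), 157 (control 2), 83 (mutant 1) and 89 (mutant 2). *Hist1h3a* had 11 and 15 (controls) versus 8 and 10 (mutants). Both *Hist4h4* and *Hist1h4c* were highest in control 2, and the log2 fold change of *Hist4h4* was -0.47 with and -0.08 without that library.

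In H1, which binds linker DNA, *Hist1h1c* averaged 366 ± 58.7 (SD, n = 2) over controls against 370 ± 24 (SD, n = 2) over mutants. For *Hist1h1e* the means were 362 ± 62.9 and 346 ± 4.24 (SD, n = 2). *Hist1h1b* had 48 and 58 in the control libraries, against 56 and 115 in those of mutants. *Hist1h1a*, chosen after its values were seen, had 37 (control 1), 26 (control 2), 24 (mutant 1) and 79 (mutant 2). In both of the latter, mutant 2 stood above the other 3 libraries, and all windows of both genes were unique.

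In H2A, *Hist2h2ac* had 127 and 167 (controls) versus 132 and 150 (mutants). *Hist1h2ak* had 53 and 37 in the control libraries, against 37 and 72 in those of mutants, and *Hist1h2af* 30 (control 1), 38 (control 2), 31 (mutant 1) and 52 (mutant 2). *Hist3h2a* of the small Hist3 cluster had 58 and 79 (controls) versus 77 and 69 (mutants), while its neighbour *Hist3h2ba*, an H2B gene, was not tested with 3 and 3 in the control libraries, against 5 and 6 in those of mutants. Within H2A, mutant 2 was thus highest in *Hist1h2ak* and *Hist1h2af*, and control 2 in *Hist2h2ac* and *Hist3h2a*.

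In H2B, control 2 was highest for several of the leading genes. *Hist1h2bc* had 99 (control 1), 137 (control 2), 114 (mutant 1) and 120 (mutant 2). *Hist1h2be* had 64 and 144 (controls) versus 93 and 117 (mutants). *Hist2h2be* had 61 and 138 in the control libraries, against 68 and 75 in those of mutants, so that control 2 stood apart from the other 3 libraries. *Hist2h2be* has unique sequence throughout and a poly(A) signal within the last 50 bases of its annotated transcript. *Hist1h2bb* was at 27 in both replicate 1 libraries and at 39 (control 2) and 38 (mutant 2), and *Hist2h2bb* at 16 (control 1), 20 (mutant 1), 35 (control 2) and 40 (mutant 2). In both genes the replicate 2 libraries lay above the replicate 1 libraries, and the genotypes overlapped. *Hist1h2bl*, named after its values were seen, was at 6 and 9 in controls and at 9 and 32 in mutants.

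In H3, *Hist1h3e* had 36 (control 1), 50 (control 2), 38 (mutant 1) and 59 (mutant 2), and *Hist1h3c* 24 and 19 (controls) versus 17 and 32 (mutants). In H4, *Hist1h4d* had 118 and 145 in the control libraries, against 99 and 137 in those of mutants. *Hist1h4f* had 36 (control 1), 32 (control 2), 29 (mutant 1) and 58 (mutant 2), and *Hist1h4h* 36 and 67 (controls) versus 38 and 49 (mutants). The groups overlapped in each of these H3 and H4 genes.

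The summed family differed more within each genotype than between them, and in the same direction in both groups. Replicate 2 exceeded replicate 1 in 38 of 41 members among the mutants (51.4% of all genes tested) and in 32 of 41 among the controls (49.8% of all genes tested). In 30 of 41 members it did so in both groups, compared with 27.7% of all genes tested, and in 24 both replicate 2 libraries lay above both replicate 1 libraries, compared with 16.4%. The reverse, replicate 1 above replicate 2 in both groups, occurred in 1 member, compared with 24.9% of all genes tested. The highest of the 4 values was found in mutant 2 for 23 members (22.4% of all genes tested), in control 2 for 16 (33.2%), in control 1 for 2 (21.5%) and in mutant 1 for 0 (20.7%). The summed family in replicate 2 was 1.31 times that in replicate 1 in controls and 1.34 times in mutants. No test was applied, since members share their libraries and the labels do not say what a replicate number stands for.

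**Figure D5:**
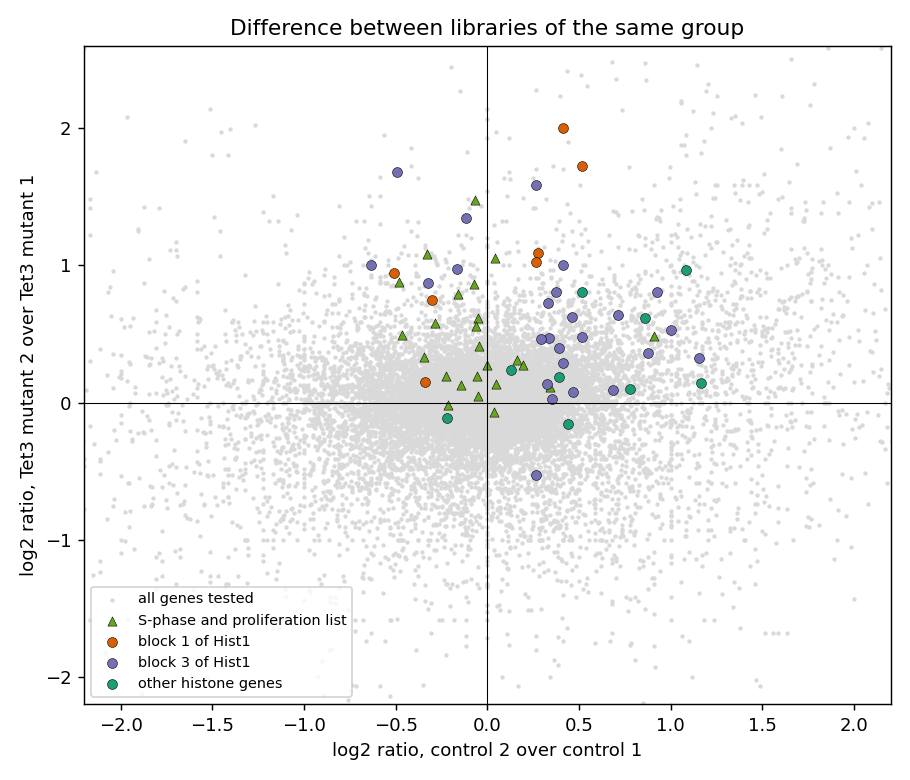
Log2 ratio of control 2 over control 1 (horizontal axis) against log2 ratio of Tet3 mutant 2 over Tet3 mutant 1 (vertical axis), on log2(value + 1), for all genes tested (grey; points beyond the axes are not drawn), the S-phase and proliferation list (triangles) and the histone genes by location (circles). Of 41 histone genes 30 lie in the upper right quadrant, while most triangles lie above the horizontal line near a control ratio of 0.

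The ratio of replicate 2 to replicate 1 was not alike for the same members in both groups. Across the 41 members, Pearson's r between the log2 ratio of replicate 2 to replicate 1 in controls and that in mutants was -0.226, and it was 0.134 across all genes tested, both as descriptions across genes. Among the larger blocks, the ratio in mutants was highest in block 1 of the Hist1 cluster (chr13:21715763-21832196), which is separated from the others by more than 100000 bases. Its 14 members summed to 223 and 203 in the control libraries, against 179 and 363 in those of mutants, a ratio of 2.03 within the mutants and 0.91 within the controls. All 7 tested members of the block were higher in mutant 2 than in mutant 1, with a median ratio of 2.05, as were 24 of 25 in block 3, with a median ratio of 1.46, and 51.4% of all genes tested. Within the controls, 4 of the 7 were higher in control 2, with a median ratio of 1.21. The ratio of the sums and that of the single members thus differed in direction. The minimum mean for testing included mutant 2, so it could favour members high there, such as *Hist1h2bl* with 9 in mutant 1 and 32 in mutant 2. In block 3 (chr13:23531050-23764406), which holds 27 members, the sums were 1496 (control 1), 1981 (control 2), 1524 (mutant 1) and 1995 (mutant 2), with ratios of 1.32 and 1.31. For the Hist2 cluster the ratios were 1.44 in controls and 1.24 in mutants. Members of block 1 have less unique sequence (median 27.2% of windows) than those of block 3 (64.5%), and these blocks were compared after the values were seen.

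Divided by the annotated 3′ end, the 21 members with a short end summed to 418 and 514 (controls) versus 382 and 567 (mutants). The 17 members with a long end summed to 1400 and 1896 in the control libraries, against 1467 and 1770 in those of mutants, and the 16 without the stem-loop letters to 439 (control 1), 557 (control 2), 421 (mutant 1) and 694 (mutant 2). Within the mutants the ratio of replicate 2 to replicate 1 was 1.48 for short, 1.21 for long and 1.65 for no stem-loop letters. Within the controls the ratios were 1.23, 1.35 and 1.27. Long ends carried 62.1% of the family's summed level, without regard to length or uniqueness of the genes. Per 1000 bases the median was 33 for long, 27.5 for short and 36.1 for no stem-loop letters. The median share of unique windows was 90.3%, 57.6% and 30.7% in the same order. The value of a long gene includes all reads over its exons, so that reads ending at the stem-loop and reads running past it were not told apart.

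Genes of DNA replication and of proliferating cells were mostly highest in mutant 2. Of 24 genes on the S-phase and proliferation list, 21 were highest in mutant 2 (22.4% of all genes tested) and 1 in control 2. The list summed to 4673 and 4294 (controls) versus 4504 and 5789 (mutants). *Mki67*, a marker of cycling cells, had 890 and 762 in the control libraries, against 915 and 1047 in those of mutants, with a log2 fold change of 0.25 (SE 0.14). *Pcna*, the sliding clamp of DNA polymerases, was a different case with 256 (control 1), 232 (control 2), 193 (mutant 1) and 211 (mutant 2). In the list as a whole 0 of 24 genes had an unadjusted limma p under 0.05, compared with 6.68% of all genes tested. Of the log2 fold changes 20 were above 0, compared with 49% over all genes tested, and the median was 0.21. In control 2, where the histone sum was higher than in control 1, the sum of the list was lower. In bulk RNA, a different number of cycling cells and a different amount of RNA in each of them cannot be told apart.

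Markers of other cell types also distinguished control 2. Its 5 alveolar type 2 markers were each the highest of the 4 libraries (sum 14883, compared with 7104 to 9905), its 8 T cell markers summed to 228 (790 to 877 in the others) and its 4 B cell markers to 121 (172 to 316). Summed macrophage markers were 6388 and 5843 (controls) versus 7013 and 7888 (mutants), highest in mutant 2. Erythroid markers were at 239 in control 1 and at 4 to 20 elsewhere, with 2 of 4 at 0 in at least 1 library. The part of these differences in histone gene levels was not tested.

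Promoters from RefSeq (GRCm38.p6, 250 bases before to 50 bases after the start) were matched for 49 members, all but *Hist1h2bc*, *Hist1h3a*, *Hist1h3f*, *Hist2h2be* and *Hist2h4*. They were searched on both strands for 3 motifs, none of which contains another. The letters TATAAA occurred in 61.2% of them, compared with 14.2% of 27025 promoters, and CCAAT in 81.6%, compared with 37.9%. CCAAT was found in all 37 promoters of H1, H2A, H2B and H3 genes but in 25% of the 12 H4 promoters. The octamer ATTTGCAT, known as a binding site of OCT1 in H2B promoters, was found in 5 of 13 H2B promoters and 5 of 10 H2A promoters and in 0 of the other 26, compared with 1.75% of all promoters. The octamer is shown in capitals within 30 bases for members whose levels are given above and for a divergent pair that shares it:
Hist1h2bb, chr13:23746634-23746663, plus strand: tgagtctcttATTTGCATaaagcctttgag
Hist2h2bb, chr3:96269642-96269671, plus strand: gtgaaacctcATTTGCATacaagctctata
Hist2h2ac, chr3:96221063-96221092, plus strand: ttgagacctaATTTGCATaaggcgttcata
Hist1h2ae and Hist1h2bg, chr13:23571331-23571360, plus strand: tgagtcccttATTTGCATagaacctctata

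The octamer lay 90 bases before the annotated start in *Hist1h2bb* and 48 bases before it in *Hist2h2bb*. In *Hist2h2ac* it lay 200 bases upstream on the opposite strand, between this gene and the divergent *Hist2h2be*. All 5 sites in H2A promoters lay on the opposite strand, and all 5 in H2B promoters on the sense strand. The site shared by *Hist1h2ae* and *Hist1h2bg* was counted for both genes. In total 7 pairs of members had facing starts less than 1000 bases apart. The values of 3 of these pairs are given. *Hist2h2be* had 61 and 138 in the control libraries, against 68 and 75 in those of mutants over an exon length of 2620 bases, whereas *Hist2h2ac*, 238 bases away, had 127 (control 1), 167 (control 2), 132 (mutant 1) and 150 (mutant 2) over 520 bases. *Hist1h2bc* had 99 and 137 (controls) versus 114 and 120 (mutants), but *Hist1h2ac*, 250 bases away, 14 and 17 in the control libraries, against 12 and 8 in those of mutants. *Hist1h2bg* had 18 (control 1), 37 (control 2), 24 (mutant 1) and 35 (mutant 2), with both replicate 2 libraries on top, and *Hist1h2ae*, which faces it at a distance of 175 bases, 10 and 17 (controls) versus 8 and 13 (mutants) with control 2 and mutant 2 on top as well. This pair was named after its values were seen.

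Replication-independent variants, which replace canonical histones outside S phase and are made mostly from polyadenylated mRNA, had a higher summed count than the family in each library, without regard to length or uniqueness of the genes. Their 11 genes summed to 3127 and 3790 in the control libraries, against 3163 and 3391 in those of mutants. At an unadjusted limma p under 0.05 the number was 0 of 11, compared with 6.68% of all genes tested. The median log2 fold change was -0.01. *H3f3b*, one of the genes for H3.3, had 671 (control 1), 781 (control 2), 745 (mutant 1) and 691 (mutant 2), and *H3f3a*, the other, 148 and 163 (controls) versus 155 and 141 (mutants). *H2afz*, which encodes H2A.Z, had 161 and 178 in the control libraries, against 167 and 191 in those of mutants. *H1f0*, a linker histone of resting cells, and *H2afj* were chosen after their values were seen. *H1f0* had 471 (control 1), 710 (control 2), 483 (mutant 1) and 544 (mutant 2), and *H2afj* 229 and 448 (controls) versus 173 and 275 (mutants), so that both were highest in control 2, as were *Hist2h2be* and *Hist4h4*.

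Genes for histone mRNA transcription and 3′ end processing were examined next. Of 20 genes tested, 0 had an unadjusted limma p under 0.05, compared with 6.68% of all genes tested. In 7 the log2 fold change was above 0, compared with 49% of all genes tested, and the median was -0.04. *Slbp*, encoding the stem-loop binding protein, had 232 and 263 in the control libraries, against 218 and 241 in those of mutants, with a log2 fold change of -0.11 (SE 0.16). *Npat*, encoding the coactivator of histone gene transcription, had 482 (control 1), 385 (control 2), 394 (mutant 1) and 414 (mutant 2), with a log2 fold change of -0.09 (SE 0.16). The summed level of the list in replicate 2 was 1.08 times that in replicate 1 in controls and 1.03 times in mutants. Histone chaperones and chromatin assembly factors gave 0 of 18 genes at an unadjusted limma p under 0.05 (6.68% of all genes tested). Their median log2 fold change was 0.06, and the same ratios of their sum were 1.04 and 0.956.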

How the data were processed

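RNA of sorted SMCs was depleted of ribosomal RNA and sequenced from stranded total RNA libraries in single-end mode. By their methods and processing notes, the authors trimmed reads with Trimmomatic, aligned them with STAR to mm10 (GRCm38) and counted them over exons with featureCounts, excluding reads that mapped to several places or genes. Whether strand was used in counting was not stated, so members with an overlapping gene on the other strand have uncertain values. The unit deposited by the authors is a score: counts scaled between samples and rounded to whole numbers, so that no count model was applied.

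Here, older symbols were matched by Ensembl identifier to GENCODE M21 for 99.8% of 21462 genes, and all 54 members had the same coordinates there. Genes with a mean of at least 10 (16659, 41 of them members) were compared on log2(value + 1) with limma 3.58.1 in R 4.3.3 (lmFit, eBayes with a trend, Benjamini-Hochberg over all genes tested). Fold changes on this scale understate changes of low values. Sums were compared by exact two-sided permutation tests in SciPy 1.17.1. The script was tested on simulated data. Groups and replicate numbers were taken from the labels. Uniqueness, stem-loops and lengths come from GENCODE M21 transcripts, since no genome of the build was used here, and promoters from RefSeq. Mitochondrial genes were not analysed here.

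The members and lists were chosen with earlier results of these data known. The genes named are the 3 highest per length in each class, up to 5 per direction with the smallest p among members whose groups did not overlap, 7 members known outside S phase or standing alone, and reference genes. Others are marked as chosen after their values were seen. Alternatives were a pseudocount of 0.5 or 8, a minimum mean of 1 or 50, equal library totals, median-ratio factors, a limma fit with no trend, a replicate block, omission of each library, the sums without their most abundant member and, chosen after the data were seen, members with at least 50% unique windows only and other scalings for the comparison of libraries within a group.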

Additional observations from a re-analysis of the deposited data

How the results depend on the processing

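In limma fits under all alternatives, 0 members passed the adjusted threshold, and 1 gene of the whole table did without the trend. The number of members at an unadjusted p under 0.05 was 0 as reported, 1 with a pseudocount of 8 (6.73% of all genes tested), 1 with equal library totals (6.91%) and 3 without the trend (6.83%). With a library left out, where the lone library of a group was assumed to vary like the other group, it was 0 to 3, at 20.2% of all genes without control 1, 5.37% without control 2, 1.64% without mutant 1 and 2.49% without mutant 2. The median log2 fold change of members ran from -0.25 to 0.36 with a library left out. The cause of these differences was not tested.

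The replicate numbers are not stated to pair libraries, and with 2 pairs a pairing could not be shown. With the replicate number as a block, 1 member had an unadjusted p under 0.05 (9.83% of all genes tested), 0 passed the adjusted threshold, and the block changed no other call.

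With a library left out, the log2 ratio took both signs for the family sum (-0.20 to 0.23), H1 (-0.09 to 0.26), H2A (-0.14 to 0.24), H2B (-0.37 to 0.38), H4 (-0.32 to 0.11), Hist1 (-0.19 to 0.28), Hist2 (-0.32 to 0.21), H3 (-0.31 to 0.48) and Hist3 (-0.063 to 0.36), and it ran from -0.87 to -0.082 for the single Hist4 gene. Without *Hist3h2a*, the Hist3 sum rests on *Hist3h2ba* alone, with a log2 ratio of 0.87. The counts of members with higher values in replicate 2 were 38, 32 and 38 (mutants, controls, highest of all) with equal library totals. The shares of all genes tested were 55.4%, 46.8% and 57%. With median-ratio factors the counts were 38, 32 and 39, and the shares 50.9%, 51.5% and 56.9%. Among the 33 members tested with at least 50% unique windows the counts were 31, 28 and 33, compared with 51.4%, 49.8% and 55.9% of all genes tested. The last share was 55.5% when genes tied for the highest value were not counted as highest in any library. Equal library totals turned the sign for *H3f3b* (0.036) and *Hist1h2bb* (0.029).

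With a library left out, log2 fold changes changed sign for these genes, none of them called: *H2afz* (-0.020 to 0.17), *H3f3b* (-0.12 to 0.097), *Hist1h1c* (-0.14 to 0.19), *Hist1h1e* (-0.23 to 0.12), *Hist1h2af* (-0.12 to 0.61), *Hist1h2ak* (-0.25 to 0.69), *Hist1h2bb* (-0.28 to 0.24), *Hist1h2bc* (-0.23 to 0.24), *Hist1h2be* (-0.46 to 0.70), *Hist1h3c* (-0.31 to 0.56), *Hist1h3e* (-0.16 to 0.47), *Hist1h4d* (-0.40 to 0.066), *Hist1h4f* (-0.22 to 0.76), *Hist1h4h* (-0.62 to 0.26), *Hist2h2ac* (-0.24 to 0.15), *Hist2h2bb* (-0.29 to 0.79), *Hist2h2be* (-0.94 to 0.22), *Hist3h2a* (-0.12 to 0.33), *Npat* (-0.26 to 0.069).

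Without a genome of the build, unique windows were counted among annotated transcripts, and the planned count over the genome was not run. The Hist4 sum has no value without its only member. Low values (median 28.5 for members tested) limit the precision, and counting intervals cannot be given for scaled and rounded values.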

Other observations

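Pseudogenes of the family with names of the same kind were outside the rule. *Hist1h2al* had 5 and 6 normalized counts (controls) versus 3 and 6 (mutants), and *Hist3h2bb-ps* had 1 and 7 in the control libraries, against 5 and 13 in those of mutants, the highest value again being in mutant 2. In the remaining marker lists the sums for pericytes were 3632 (control 1), 3225 (control 2), 4496 (mutant 1) and 4268 (mutant 2). For neutrophils they were 617 and 505 (controls) versus 1280 and 763 (mutants). For ciliated cells they were 1848 (control 1), 1993 (control 2), 3424 (mutant 1) and 2502 (mutant 2).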
